A study of Mus musculus with 24 samples.

Results

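The comparison described here asks whether the passage from committed progenitors to Ter119+ erythroid cells changed gene expression by a different amount in DBA/2 (D2) and C57BL/6 (B6) mice. It uses 12 of the 24 arrays of the study, 3 for each of D2 Ter119+ cells, D2 progenitors, B6 Ter119+ cells and B6 progenitors. For each gene the quantity tested was the D2 change (D2 Ter119+ minus D2 progenitor) minus the B6 change (B6 Ter119+ minus B6 progenitor) on the log2 scale, called the interaction below. A positive interaction means a larger rise or a smaller fall in D2.

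The study profiled messenger RNA in bone marrow cells of both strains with Illumina bead arrays of the WG-6 v2 design, hybridised with a single colour. Both strains are inbred, and the labels name no transgene, mutation or treatment in either. The progenitors were sorted as L-S-K+ cells, that is lineage-negative, Sca-1-negative and c-Kit-positive, and the erythroid cells as Ter119+. LSK and Gr1+ cells made up the other 12 arrays, which entered the normalization and the estimate of the spread only. Age, sex and the number of mice behind an array are not given in the labels used here. Because separate animals are not stated either, every error and p-value refers to the spread between arrays, which may be technical.

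L-S-K+ cells are a mixture of myeloid, megakaryocytic and erythroid precursors. Ter119 is an antigen of the red cell surface, present from the early erythroblast stage to the mature erythrocyte. Along that path cells fill with globin, switch on heme synthesis and iron uptake under the transcription factors Gata1 and Klf1, assemble the membrane skeleton, leave the cell cycle and lose nucleus and mitochondria. D2 and B6 mice differ in the haplotypes of the beta-globin locus and of the major histocompatibility complex (MHC), both highly polymorphic regions of the mouse genome.

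The erythroid label was borne out by 6 tested of 12 listed markers, whose mean level was 11.3 ± 0.338 (log2, SD) in D2 Ter119+ cells, 7.34 ± 0.389 in D2 progenitors, 11.5 ± 0.328 in B6 Ter119+ cells and 7.46 ± 0.10 in B6 progenitors (n = 3 arrays in every group here and below). Markers of other cells were present as well. The mean of 9 tested of 10 neutrophil markers was 11 ± 0.147 in D2 Ter119+ cells and 10.7 ± 0.148 in B6 Ter119+ cells, and 8 of the 9 were detected on every array of both, with Cxcr2 detected on none. Neutrophil markers stood at 8.42, 8.62 and 10.3 on the D2 progenitor arrays, with replicate 3 far above the others, and at 7.68, 7.85 and 7.93 on the B6 progenitor arrays. For 7 tested of 10 B cell markers the mean was 9.02 ± 0.192 in D2 Ter119+ cells and 8.56 ± 0.0136 in B6 Ter119+ cells, against 5.12 ± 0.232 in D2 progenitors and 5.03 ± 0.179 in B6 progenitors. Their part in the results was not tested. The share of probes detected ran from 17.5% on D2 progenitor replicate 1 to 27.4% on B6 Ter119+ replicate 3. Replicate 2 of the B6 Ter119+ group correlated least with its group, at r = 0.942.

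**Figure D1:**
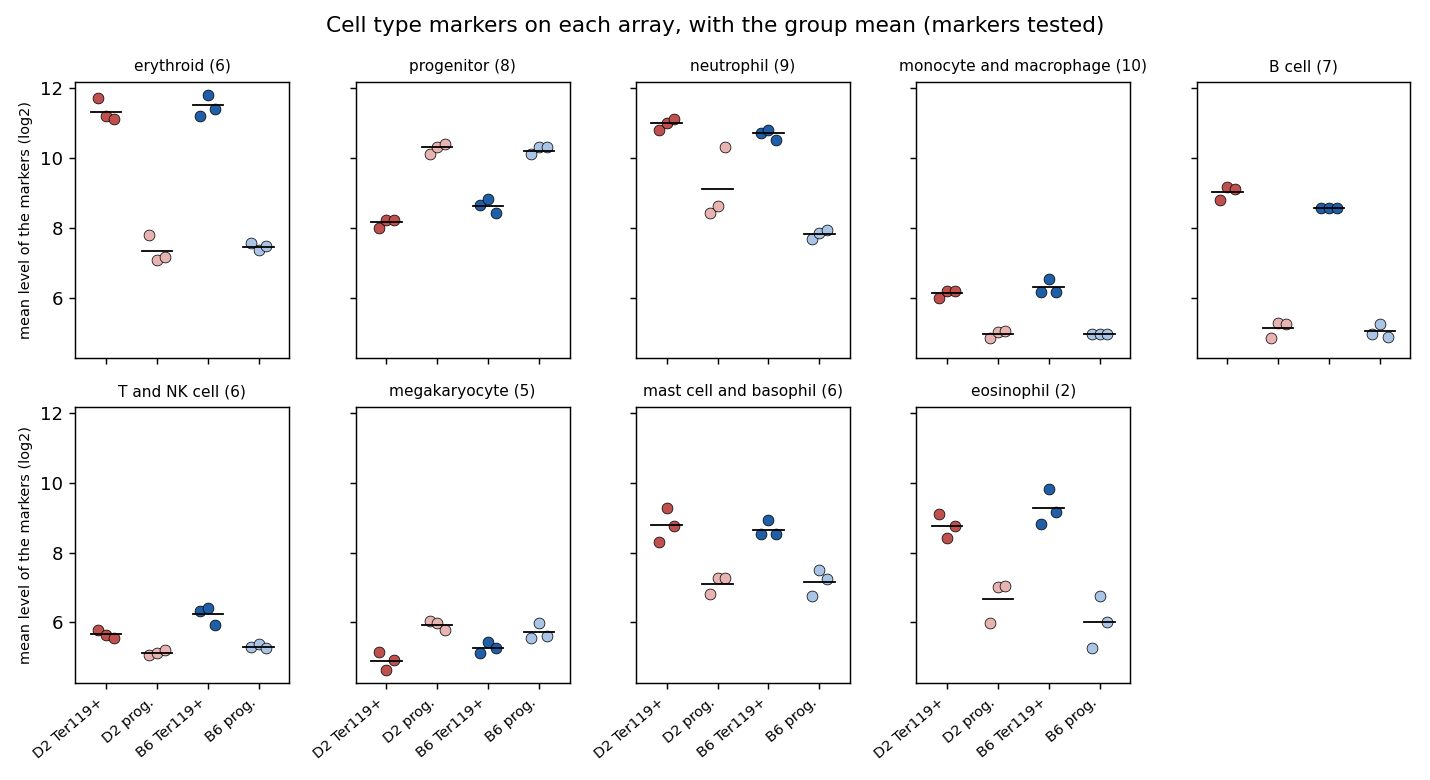
Mean log2 level of each cell type's tested markers on every array (points) with the group mean (bar), for D2 Ter119+, D2 progenitor, B6 Ter119+ and B6 progenitor arrays from left to right; the number of markers is in each title. Erythroid markers are higher and progenitor markers lower in the Ter119+ than in the progenitor arrays of both strains. The Ter119+ arrays also carry progenitor, neutrophil, B cell, mast cell and basophil, and eosinophil markers.

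Few genes were called for a different change in the 2 strains. Of 7925 genes tested, 145 were called for the interaction (1.83%) in limma at a Benjamini-Hochberg adjusted p under 0.05 over all genes, 80 of them with a positive interaction, here called higher (1.01%), and 65 with a negative one, called lower (0.82%). The change between progenitors and Ter119+ cells was itself called for 3503 genes in D2 (44.2%), of which 1554 rose (19.6%) and 1949 fell (24.6%). In B6 it was called for 3272 genes (41.3%), of which 1401 rose (17.7%) and 1871 fell (23.6%). Both strains called 2463 genes, which is 70.3% of the D2 list and 75.3% of the B6 list, and 2452 of them moved the same way. Across genes the D2 and B6 changes, which share no array, had a Pearson's r of 0.881 and a Spearman's rho of 0.83, given as a description since genes are not independent replicates. The median interaction over all genes was 0.00924 and the median absolute interaction 0.293, against a median standard error of 0.335. An unadjusted limma p under 0.05 was reached by 930 genes, so a gene without a call is not shown to change equally in both strains. In these sorted populations fewer cells of a type and less RNA per cell cannot be told apart.

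The 80 genes called higher divided into 32 that rose in both strains, 28 that rose in D2 with no call in B6, 12 that fell in B6 with no call in D2, and 8 that rose in D2 and fell in B6. Among the 65 called lower, 25 rose in B6 with no call in D2, 18 fell in D2 with no call in B6, 11 fell in both, 8 rose in both and 3 fell in D2 and rose in B6. On none of the 6 D2 arrays were 10 of the 80 and 17 of the 65 detected, and on none of the 6 B6 arrays 10 and 4. In such a strain the change lies between readings below detection, so the absence of a call says little about it. The level in D2 minus that in B6 was called in Ter119+ cells alone for 55 of the 80 and 33 of the 65, and in progenitors alone for 9 of the 80 and 19 of the 65. Over all genes such a strain difference was called for 16.7% in Ter119+ cells and 5.68% in progenitors. The interaction is made of these 2 strain differences, so the counts are a description only.

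The number of calls depended on the normalization. Median scaling in place of quantile normalization left 4 higher and 5 lower (44.4% higher, against 55.2%), and 75th percentile scaling left 5 and 12 (29.4% higher). The median standard error was 0.736 and 0.58 under these scalings, against 0.335. A rule given with the processing named 45 called genes. Of these, Hbb-b2, H2-Ea, H2-Aa and Sox6 passed under both scalings, Ddx25, Itgb2l and H2-Ob under the second alone, and the other 38 under neither, with no direction reversed. Leaving out single arrays moved the counts as well: without D2 Ter119+ replicate 3 there were 41 higher and 41 lower, without D2 Ter119+ replicate 2 there were 51 higher, without B6 progenitor replicate 1 there were 50 higher, and without B6 progenitor replicate 2 there were 52 higher.

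**Figure D2:**
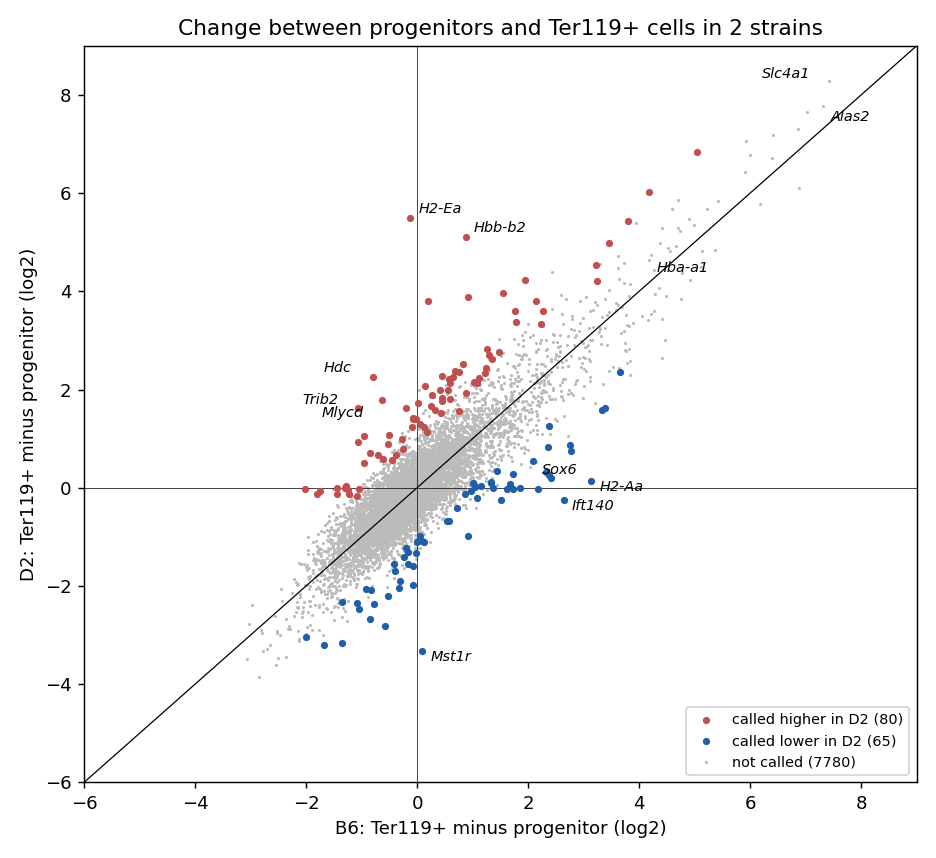
Change from progenitors to Ter119+ cells in D2 (vertical axis, log2) against the change in B6 (horizontal axis, log2) for 7925 genes, with the line of equal change. The 80 genes called higher lie above the line and the 65 called lower lie below it, while Hba-a1, Alas2 and Slc4a1 sit near it.

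Of the 6 globin genes tested Hbb-b2 was called for the interaction, and the other 5 rose in both strains with no called difference. Hemoglobin carries oxygen as a tetramer of alpha and beta chains. B6 mice carry the beta-globin haplotype with the genes Hbb-bs and Hbb-bt, and D2 mice the haplotype with Hbb-b1 and Hbb-b2, so a probe named for one may bind the near-identical copy of the other. The Hbb-b2 probe read 10.22, 9.65 and 8.79 on the D2 Ter119+ arrays and 4.25, 4.40 and 4.67 on the D2 progenitor arrays. On the B6 Ter119+ arrays it read 5.19, 5.42 and 4.80, and on the B6 progenitor arrays 4.22, 4.31 and 4.27. All D2 Ter119+ arrays lay above all B6 Ter119+ arrays, and no progenitor array of either strain reached detection. Hbb-b2 was at least 22.1-fold higher in D2 Ter119+ cells than in D2 progenitors, at least 1.29-fold higher in B6 Ter119+ cells than in B6 progenitors, and 21.3-fold higher in Ter119+ cells of D2 than of B6. In such a bound an undetected probe takes the lowest signal that passed detection on that array, unless its own signal was higher. A group detected on only some of its arrays keeps its readings. The fitted interaction of Hbb-b2 was 4.24 ± 0.41 (SE, limma adjusted p = 7.54e-07). That value uses readings below detection in both progenitor groups and has no bound. The same holds, through the groups given as undetected with each gene, for the fitted interactions of Sox6, H2-Ea, H2-Aa, Spib, Rnase2a, Itgb2l, Polr1b, Mst1r and Ankrd61 below.

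The other 5 globin probes tested were not called, with interactions between 0.18 and 0.87. Hba-a1, an adult alpha-globin gene, read 14.62, 14.85 and 14.85 in D2 Ter119+ cells and 11.20, 9.59 and 9.60 in D2 progenitors. It read 14.44, 14.38 and 14.33 in B6 Ter119+ cells and 10.23, 10.39 and 10.03 in B6 progenitors. D2 progenitor replicate 1 was the highest of the 6 progenitor arrays. The rise of Hba-a1 was 4.65 ± 0.40 in D2 and 4.17 ± 0.40 in B6, and the interaction 0.48 ± 0.56 (adjusted p = 0.796). Hbb-bt rose by 4.88 ± 0.48 in D2 and 4.52 ± 0.48 in B6. Hbb-bs rose by at least 4.73 in D2 and by 4.21 ± 0.47 in B6. The D2 value is a lower limit because the Hbb-bs probe held the highest value of the normalized scale, 14.97, on all 3 D2 Ter119+ arrays, and the absence of a call for Hbb-bs is limited in the same way. Hba-a1, at 14.33 to 14.85 in Ter119+ cells, lay near that top value, so its absence of a call may be limited as well. The theta-globin gene Hbq1a rose by 2.01 ± 0.23 in D2 and 1.14 ± 0.23 in B6, an interaction of 0.87 ± 0.33 (adjusted p = 0.255).

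The promoters of Hbb-bs and Hbb-bt, whose probes moved together in both strains, are shown from RefSeq (GRCm38.p6, a B6 genome), as the 300 bases that span the start of each gene on the minus strand. Hbb-bs lies at chr7:103827879-103828178 and Hbb-bt at chr7:103813874-103814173. Capitals mark matches, on either strand, to the GATA motif AGATAA and to the core letters CACCC of sites that Klf1 binds. They also mark the CCAAT box and the TATA box, searched as TATAA, and 2 neighbouring CCAAT matches on opposite strands run together in Hbb-bt.
Hbb-bs: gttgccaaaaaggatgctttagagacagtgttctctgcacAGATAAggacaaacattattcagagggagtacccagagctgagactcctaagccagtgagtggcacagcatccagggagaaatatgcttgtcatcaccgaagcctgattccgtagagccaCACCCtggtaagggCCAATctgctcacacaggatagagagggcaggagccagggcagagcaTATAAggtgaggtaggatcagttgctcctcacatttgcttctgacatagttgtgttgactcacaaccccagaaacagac
Hbb-bt: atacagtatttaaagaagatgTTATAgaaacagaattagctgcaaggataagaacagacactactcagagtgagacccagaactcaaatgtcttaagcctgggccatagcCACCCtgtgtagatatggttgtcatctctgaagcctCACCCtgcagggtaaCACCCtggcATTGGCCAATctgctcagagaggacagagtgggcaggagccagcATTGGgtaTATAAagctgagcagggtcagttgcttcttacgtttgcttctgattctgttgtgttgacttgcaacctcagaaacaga
Hbb-bs held 1 match of each kind. Hbb-bt held 3 CACCC matches, 3 CCAAT boxes, 2 TATA boxes and 0 GATA motifs. Of 32851 RefSeq promoters of the same length, 57.5% held the CACCC letters, 37.4% a CCAAT box, 24.9% the TATA letters and 11.2% the GATA motif, counted on both strands. A match is a description of the letters in this window.

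The remaining hallmarks of red cell formation were not called for the interaction. Alas2, the enzyme that commits cells of the erythroid line to heme synthesis, read 12.82, 12.53 and 12.43 in D2 Ter119+ cells and 5.51, 4.45 and 4.51 in D2 progenitors. It read 12.04, 12.57 and 12.30 in B6 Ter119+ cells and 4.92, 5.07 and 4.98 in B6 progenitors, so that the Ter119+ arrays of both strains overlapped. Its rise was 7.77 ± 0.30 in D2 and 7.31 ± 0.30 in B6. In D2 progenitors 1 of 3 arrays reached detection, so the D2 rise of Alas2 uses readings below detection. Slc4a1, the anion exchanger band 3 of the red cell membrane, rose by 8.30 ± 0.48 in D2 and 7.42 ± 0.48 in B6 (interaction adjusted p = 0.67). Its Ter119+ means, 14.8 in D2 and 14.6 in B6, lay near the top of the scale, which may limit this comparison. The transferrin receptor Tfrc rose by 2.27 ± 0.21 in D2 and 2.30 ± 0.21 in B6 (interaction adjusted p = 0.983). By list, 0 of 17 heme genes, 0 of 13 iron genes, 0 of 18 membrane and skeleton genes and 0 of 8 carbonic anhydrase and antioxidant genes were called. Over all genes 1.83% were called, the share to set beside each list count here and below. At that share a list this short may hold 0 calls without differing from other genes. The median interactions of these lists were -0.24, -0.15, -0.20 and -0.51, beside 0.00924 for all genes, and that of the iron genes turned positive under median (0.14) and 75th percentile scaling (0.26). Under the same scalings the heme median was -0.16 and -0.04, and that of the carbonic anhydrase and antioxidant genes -0.28 and -0.17. The median of all genes was -0.02 under median and 0.09 under 75th percentile scaling, the values to set beside each scaled list median here and below. Within the lists the most negative members were Car1, the carbonic anhydrase of early erythroid cells, at -1.44 ± 0.50 (adjusted p = 0.193), Tspo2, an erythroid membrane protein that binds cholesterol, at -1.37 ± 0.51 (adjusted p = 0.248) and Tfr2, the second transferrin receptor, at -1.34 ± 0.57 (adjusted p = 0.326).

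Of 19 erythroid transcription factors and receptors, Sox6 was called, with a negative interaction. Sox6 silences embryonic globin and promotes red cell maturation in the mouse. Its probe read 5.43, 4.49 and 4.42 on the D2 Ter119+ arrays, of which replicate 1 alone reached detection, and 4.26, 4.30 and 4.17 on the D2 progenitor arrays. It read 6.21, 6.31 and 6.49 on the B6 Ter119+ arrays and 4.23, 4.26 and 4.23 on the B6 progenitor arrays, where it was undetected as in D2. Every B6 Ter119+ array lay above every other array. The rise was at least 2.95-fold in B6, and no fold is given for D2. Ter119+ cells of D2, detected on 1 of 3 arrays, had a 2.94-fold lower level than those of B6, and the fitted interaction was -1.56 ± 0.27 (limma adjusted p = 0.00176). The list's median was -0.40, and it stayed negative under both scalings (-0.56 and -0.45). Of its 19 members 7 rose in D2 and 11 in B6, where 19.6% and 17.7% of all genes did.

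The master regulators themselves were not called. Klf1 read 10.81, 9.91 and 9.79 in D2 Ter119+ cells and 10.18, 9.94 and 9.77 in D2 progenitors. In B6 Ter119+ cells it read 9.56, 10.41 and 10.34, and in B6 progenitors 9.61, 8.76 and 8.92. The Ter119+ groups overlapped, and the interaction was -0.80 ± 0.45 (adjusted p = 0.522). The erythropoietin receptor gene Epor had an interaction of -0.77 ± 0.52 (adjusted p = 0.615) and Gata1 of -0.66 ± 0.46 (adjusted p = 0.624). With array weights Gata1 passed, at an adjusted p of 0.0305. D2 Ter119+ replicate 1 was the highest D2 Ter119+ array for Sox6, Klf1, Epor and Gata1.

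Art4, which carries the Dombrock blood group antigen on human red cells, was among the called genes detected on all 12 arrays. It read 7.17, 6.16 and 6.19 in D2 Ter119+ cells and 6.05, 5.66 and 5.60 in D2 progenitors. In B6 Ter119+ cells it read 7.48, 8.54 and 8.02, and in B6 progenitors 5.20, 5.13 and 5.38. The B6 Ter119+ arrays were all above the D2 ones. Art4 rose 1.67-fold in D2 and 6.86-fold in B6, an interaction of -2.04 ± 0.36 (adjusted p = 0.00248). Cd59a, a regulator that shields red cells from complement lysis, went the other way. It read 10.93, 10.02 and 9.89 in D2 Ter119+ cells, 7.98, 7.82 and 7.99 in D2 progenitors, 9.66, 9.25 and 9.62 in B6 Ter119+ cells and 8.61, 8.76 and 8.91 in B6 progenitors. Cd59a rose 5.11-fold in D2 and 1.68-fold in B6, an interaction of 1.60 ± 0.39 (adjusted p = 0.0296). The call was lost without D2 Ter119+ replicate 1, any D2 progenitor array, B6 Ter119+ replicate 2 or B6 progenitor replicate 2 or 3, with adjusted p between 0.0531 and 0.0819.

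**Figure D3:**
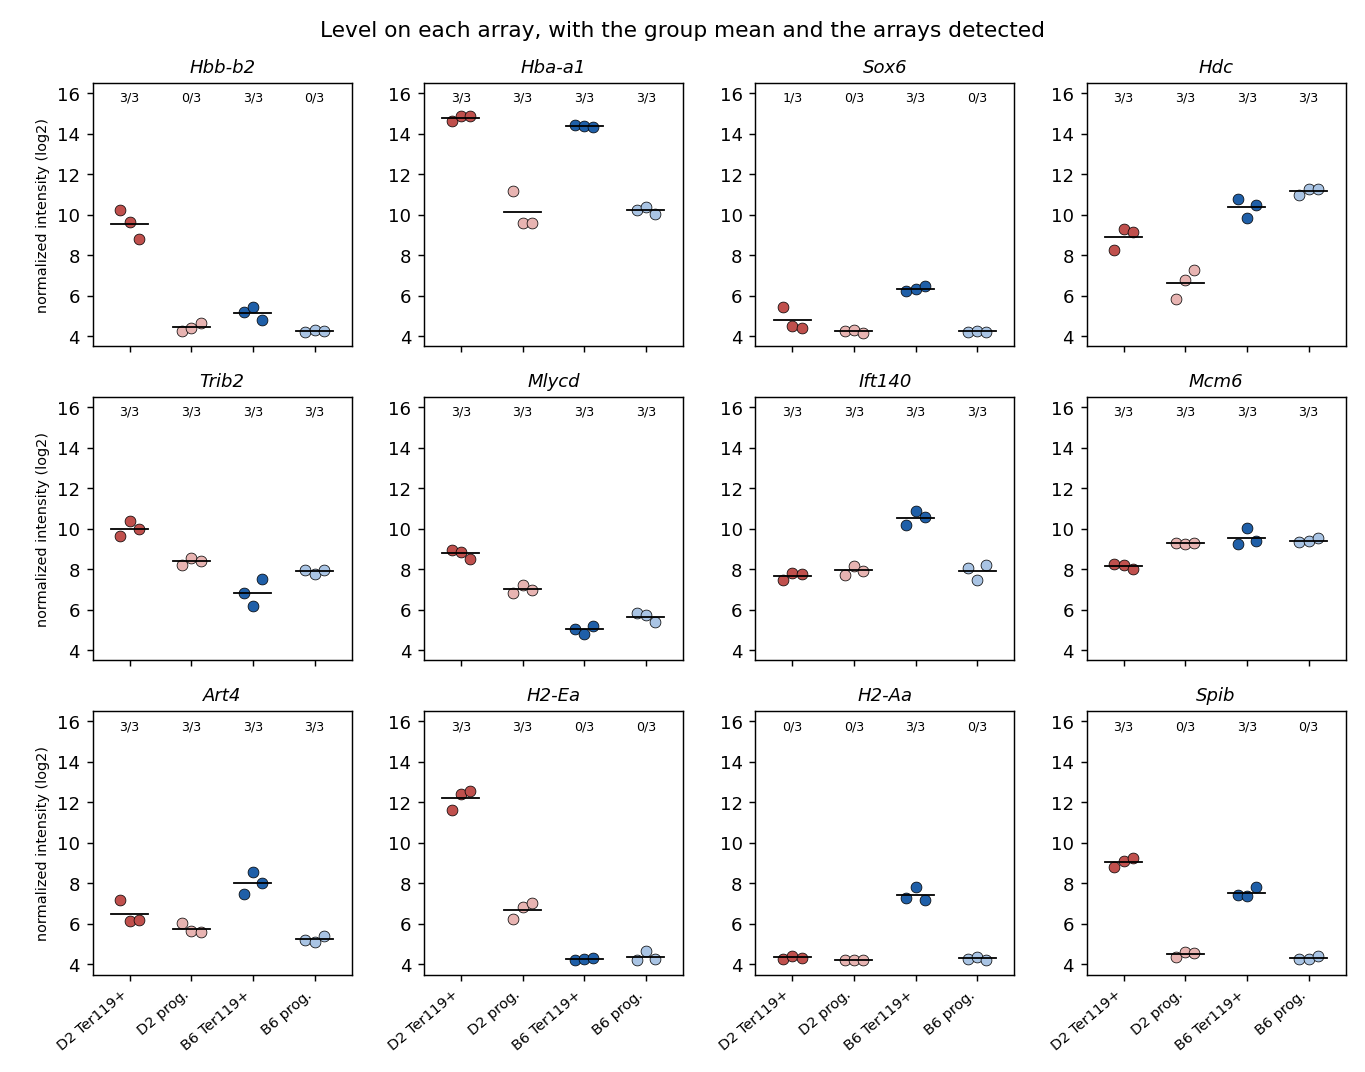
Normalized log2 intensity of 12 genes on each array (points) with the group mean (bar), for D2 Ter119+, D2 progenitor, B6 Ter119+ and B6 progenitor arrays from left to right; the number of arrays with detection stands above each group. Hbb-b2 and H2-Ea are high in D2 Ter119+ arrays, Sox6, Ift140, Art4 and H2-Aa in B6 Ter119+ arrays, and Hba-a1 is high in the Ter119+ arrays of both strains.

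Among genes measured on every array, the largest positive interactions belonged to Hdc, Trib2, Abi3, Mlycd and Ifi30. Hdc makes histamine from histidine and is a marker of basophils, mast cells and some myeloid progenitors. It read 8.23, 9.32 and 9.14 in D2 Ter119+ cells and 5.84, 6.79 and 7.29 in D2 progenitors. In B6 Ter119+ cells it read 10.80, 9.85 and 10.49, and in B6 progenitors 10.98, 11.29 and 11.25. Both D2 groups lay below both B6 groups, most of all in progenitors, where Hdc was 23.1-fold lower in D2. Hdc rose 4.77-fold in D2 with no called change in B6 (-0.79 ± 0.39), an interaction of 3.05 ± 0.55 (adjusted p = 0.00281), and its other kept probe had an interaction of 1.02 (adjusted p = 0.0397).

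Trib2, a pseudokinase of the Tribbles family, and Mlycd, which breaks down malonyl-CoA and so relieves the brake on fatty acid oxidation, rose in D2 and fell in B6. Trib2 read 9.67, 10.36 and 9.997 in D2 Ter119+ cells and 8.24, 8.54 and 8.41 in D2 progenitors. It read 6.81, 6.20 and 7.53 in B6 Ter119+ cells and 7.98, 7.79 and 7.98 in B6 progenitors. None of the 4 groups overlapped another. The change was 1.61 ± 0.31 in D2 and -1.07 ± 0.31 in B6 (interaction 2.69 ± 0.44, adjusted p = 0.00115). Mlycd read 8.97, 8.87 and 8.52 in D2 Ter119+ cells and 6.81, 7.24 and 6.96 in D2 progenitors, against 5.08, 4.80 and 5.21 in B6 Ter119+ cells and 5.83, 5.74 and 5.40 in B6 progenitors. All D2 arrays lay above all B6 arrays, and the strains were 13.5-fold apart in Ter119+ cells and 2.54-fold apart in progenitors. The interaction of Mlycd was 2.41 ± 0.29 (adjusted p = 2.72e-05).

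Abi3, an Abl interactor family member, rose 15.7-fold in D2 and 2.93-fold in B6, with B6 Ter119+ replicate 2 at 7.75 beside 9.31 and 9.54. Ifi30, a lysosomal thiol reductase that prepares antigens for MHC class II, rose 18.8-fold in D2 and 3.86-fold in B6, with B6 Ter119+ replicate 2 at 9.04 beside 7.68 and 7.74. The interactions were 2.43 ± 0.46 for Abi3 (adjusted p = 0.00483) and 2.28 ± 0.40 for Ifi30 (adjusted p = 0.00248). A second probe of Ifi30 had an interaction of 2.47 (adjusted p = 0.00144). Fcgr3, a low-affinity receptor for immunoglobulin G on myeloid cells, rose 3.07-fold in D2 with no called change in B6 (interaction 1.81 ± 0.40, adjusted p = 0.0159). B3gnt8, a glycosyltransferase that extends N-glycans, rose 4.67-fold in D2 with no called change in B6 (interaction 1.64 ± 0.36, adjusted p = 0.0136), and its other probe had 0.54 (adjusted p = 0.644). Both genes lost the call without D2 Ter119+ replicate 3 or B6 progenitor replicate 2, with adjusted p between 0.0512 and 0.0652. Csrp2, a LIM-domain protein, rose 4.74-fold in D2 (interaction 1.61 ± 0.41, adjusted p = 0.0383). Csrp2 did not pass without D2 Ter119+ replicate 2 or 3 or any progenitor array of either strain, with adjusted p between 0.0638 and 0.121.

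At the other end, Ift140 gave the most negative interaction of the genes measured on all 12 arrays. It encodes a component of the transport machinery of cilia. The probe read 7.48, 7.82 and 7.77 in D2 Ter119+ cells and 7.73, 8.19 and 7.93 in D2 progenitors. It read 10.17, 10.90 and 10.58 in B6 Ter119+ cells and 8.06, 7.47 and 8.19 in B6 progenitors. The B6 Ter119+ arrays stood above the 9 others. Ift140 rose 6.23-fold in B6 with no called change in D2, an interaction of -2.90 ± 0.33 (adjusted p = 1.45e-05). Of 2 further probes for the gene, 1 had -2.47 (adjusted p = 0.009) and the other 0.20 (adjusted p = 0.925), so the probes disagreed.

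Mthfd1, an enzyme of the folate cycle, and Pfas, an enzyme of purine synthesis, fell in D2 and had negative interactions. Mthfd1 read 6.24, 6.03 and 6.16 in D2 Ter119+ cells, 9.08, 8.68 and 8.72 in D2 progenitors, 7.82, 9.07 and 7.82 in B6 Ter119+ cells and 9.14, 8.85 and 9.27 in B6 progenitors. The D2 Ter119+ arrays were the lowest, and B6 Ter119+ replicate 2 lay within the progenitor range. The fall was 6.43-fold in D2 and 1.8-fold in B6 (interaction -1.83 ± 0.36, adjusted p = 0.00586), and a second Mthfd1 probe had -0.35 (adjusted p = 0.693). Pfas fell 4.1-fold in D2 with no called change in B6, where progenitor replicate 3 was at 8.30 beside 9.60 and 9.997 (interaction -1.72 ± 0.39, adjusted p = 0.0185). Without D2 progenitor replicate 3 the adjusted p of Pfas was 0.0532.

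Another 6 genes measured on all 12 arrays had negative interactions. Cited4, a co-activator that binds CBP and p300, fell 3.97-fold in D2 with no called change in B6 (interaction -1.92 ± 0.39, adjusted p = 0.00818). The kinase Nek3 rose 2.84-fold in B6 with no called change in D2 (interaction -1.76 ± 0.29, adjusted p = 0.00119), and 1 of its 2 other probes was called, at -1.27 (adjusted p = 0.012). Ifitm1, an interferon-induced membrane protein of early progenitors, fell 3.72-fold in D2 (interaction -1.58 ± 0.31, adjusted p = 0.00663). Its 4 other probes ranged between -2.04, which was called, and 0.06. Ctse, an aspartic protease of erythroid cells, rose 1.79-fold in D2 and 5.15-fold in B6 (interaction -1.52 ± 0.34, adjusted p = 0.018). Its 2 other probes had -1.59 (adjusted p = 0.0517) and -1.81 (adjusted p = 0.158). Ctse did not pass without D2 Ter119+ replicate 2 or 3 or B6 progenitor replicate 1 or 2, with adjusted p between 0.0523 and 0.0602. Crat, the carnitine acetyltransferase, rose 3.19-fold in B6 (interaction -1.60 ± 0.41, adjusted p = 0.042) and passed only with D2 Ter119+ replicate 1 or B6 Ter119+ replicate 1 or 3 left out, the other 9 fits giving 0.0539 to 0.139. Cenpv, a centromere protein, fell 5.53-fold in D2 and 2.07-fold in B6 (interaction -1.42 ± 0.34, adjusted p = 0.0291). Cenpv did not pass without D2 Ter119+ replicate 2 or 3, D2 progenitor replicate 1 or 2, B6 Ter119+ replicate 2 or B6 progenitor replicate 2 or 3, with adjusted p between 0.0537 and 0.115.

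**Figure D4:**
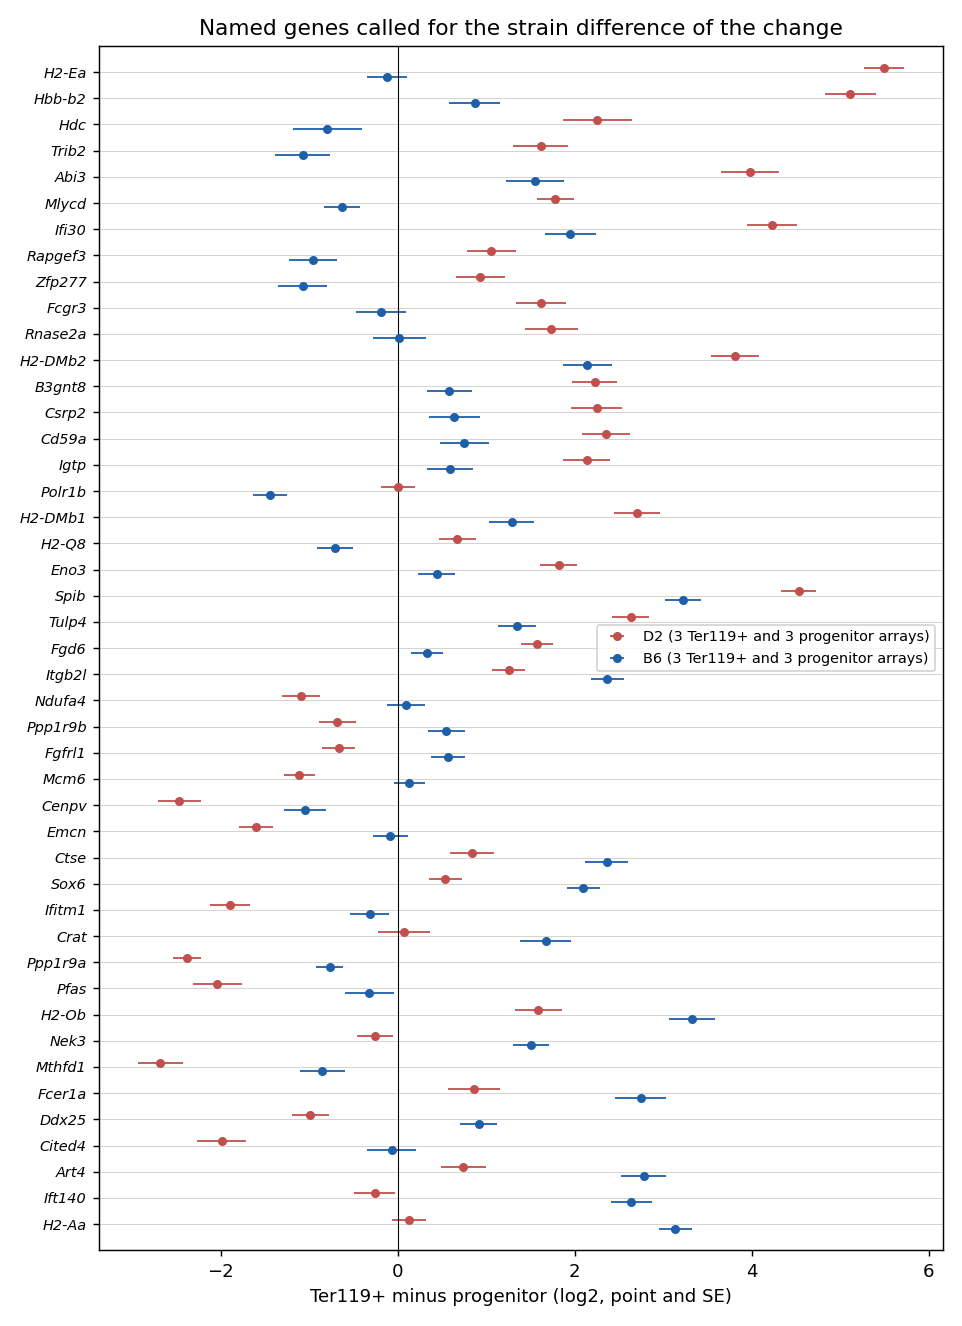
Change from progenitors to Ter119+ cells in D2 (red) and B6 (blue) for the 45 genes named by rule and called for the interaction, as log2 points with standard errors, ordered by interaction. H2-Ea and Hbb-b2 lie at the top, and H2-Aa and Ift140 at the bottom, where H2-Ea, Hbb-b2 and H2-Aa rest in part on readings below detection.

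In 11 genes the strains were called in opposite directions, 8 with a rise in D2 and 3 with a fall in D2. Beside Trib2 and Mlycd, the largest of the first kind were Rapgef3 and Zfp277. Rapgef3 (Epac1), which activates the GTPase Rap1 in response to cyclic AMP, read 6.25, 6.34 and 6.76 in D2 Ter119+ cells, 4.91, 5.72 and 5.55 in D2 progenitors, 5.13, 4.35 and 5.11 in B6 Ter119+ cells and 5.95, 5.85 and 5.67 in B6 progenitors. The groups within each strain did not overlap, and 2 of 3 D2 progenitor and 2 of 3 B6 Ter119+ arrays reached detection. Its change was 1.06 ± 0.27 in D2 and -0.96 ± 0.27 in B6 (interaction 2.02 ± 0.39, adjusted p = 0.00499). The zinc finger gene Zfp277 changed by 0.93 ± 0.28 in D2 and -1.07 ± 0.28 in B6 (interaction 2.01 ± 0.40, adjusted p = 0.0062), with B6 Ter119+ replicate 2 at 6.75 beside 8.41 and 7.95.

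Those that fell in D2 and rose in B6 were Ddx25, Fgfrl1 and Ppp1r9b. The RNA helicase gene Ddx25, known for its role in male germ cells, read 4.60, 4.58 and 4.76 in D2 Ter119+ cells, 5.54, 5.72 and 5.64 in D2 progenitors, 5.55, 5.40 and 5.69 in B6 Ter119+ cells and 4.54, 4.60 and 4.75 in B6 progenitors. The pattern was crossed, but no D2 Ter119+ array and only 1 of 3 B6 progenitor arrays reached detection. The interaction was -1.90 ± 0.30 (adjusted p = 0.000695), and -1.69 with D2 Ter119+ cells at their bound. That value keeps B6 progenitor readings below detection and is no firm limit. Fgfrl1, a receptor-like protein that binds fibroblast growth factors, had an interaction of -1.24 ± 0.27 (adjusted p = 0.0125). It was detected on 1 of 3 D2 Ter119+ and 1 of 3 D2 progenitor arrays, so its D2 fall uses readings below detection. Ppp1r9b (spinophilin), a scaffold of protein phosphatase 1, had -1.23 ± 0.30 (adjusted p = 0.0292). Ppp1r9b did not pass without D2 Ter119+ replicate 3, D2 progenitor replicate 2 or 3, B6 Ter119+ replicate 2 or 3 or B6 progenitor replicate 2 or 3, with adjusted p between 0.055 and 0.119.

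Its relative Ppp1r9a (neurabin) and the sialomucin gene Emcn also had negative interactions, and both were undetected in D2 Ter119+ cells. Ppp1r9a fell at least 4.13-fold in D2 and 1.71-fold in B6, an interaction of -1.61 ± 0.22 (adjusted p = 0.000146) and at most -1.28 at its bound. In B6 Ter119+ cells 1 of 3 arrays reached detection for Ppp1r9a. Emcn, a marker of endothelium and of early hematopoietic cells, fell at least 2.17-fold in D2, with an interaction of -1.52 ± 0.27 (adjusted p = 0.00282). Its B6 change was not called, but only 1 of 3 arrays in each B6 group reached detection. With D2 Ter119+ cells at their bound the interaction of Emcn was -1.03. That value keeps B6 progenitor readings below detection and is no firm limit. In the other direction Fgd6, an exchange factor for the GTPase Cdc42, and Tulp4, of the tubby-like family, were undetected in D2 progenitors. Fgd6 rose at least 2.03-fold in D2 with no called change in B6, an interaction of 1.25 ± 0.25 (adjusted p = 0.00805) and at least 0.69 at its bound. Tulp4 rose at least 3.99-fold in D2 and 2.55-fold in B6, an interaction of 1.28 ± 0.30 (adjusted p = 0.0209) and at least 0.65 at its bound. In B6 progenitors 2 of 3 arrays reached detection for Tulp4. Tulp4 did not pass without D2 Ter119+ replicate 2 or 3, B6 Ter119+ replicate 2 or B6 progenitor replicate 1, with adjusted p between 0.0519 and 0.0851.

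MHC class II genes held more calls than any other list, 3 higher and 2 lower of 12 tested. These molecules present peptides on B cells and other antigen-presenting cells and are not part of the red cell program. H2-Ea, the alpha chain of the E molecule, is a known null in B6 mice. It read 11.64, 12.43 and 12.56 in D2 Ter119+ cells and 6.26, 6.85 and 7.03 in D2 progenitors. In B6 Ter119+ cells it read 4.22, 4.25 and 4.30, and in B6 progenitors 4.22, 4.64 and 4.27, below detection on all 6 arrays. In D2 H2-Ea rose 45.2-fold, and its level in Ter119+ cells was at least 189.6 times that of B6, with a fitted interaction of 5.62 ± 0.32 (adjusted p = 7.23e-11) in which the B6 change lies between readings below detection. H2-Aa, the alpha chain of the A molecule, was its mirror image. It read 4.29, 4.41 and 4.33 in D2 Ter119+ cells, 4.20, 4.22 and 4.23 in D2 progenitors, 7.28, 7.81 and 7.19 in B6 Ter119+ cells and 4.28, 4.38 and 4.22 in B6 progenitors. B6 Ter119+ cells were the single group with detection, and the rise there was at least 6.3-fold (interaction -3.01 ± 0.27, adjusted p = 2.12e-07). Whether the H2-Aa probe matches the D2 allele was not tested, and the partner chain gene H2-Ab1 rose in both strains, by 4.82 ± 0.25 in D2 and 4.56 ± 0.25 in B6.

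The peptide-loading genes differed among themselves. H2-DMb2 rose 14.0-fold in D2 and 4.41-fold in B6 (interaction 1.67 ± 0.39, adjusted p = 0.0233), and H2-DMb1 rose 6.51-fold and 2.44-fold (interaction 1.41 ± 0.36, adjusted p = 0.0421). D2 Ter119+ replicate 1 was the lowest of its group for both, at 8.53 and 7.13. Both were detected on 2 of 3 D2 progenitor arrays, so their D2 folds use readings below detection. Another H2-DMb2 probe had 1.09 (adjusted p = 0.161), and the call was lost without D2 Ter119+ replicate 2 or 3, D2 progenitor replicate 1 or 2 or B6 progenitor replicate 2 or 3 (adjusted p 0.0611 to 0.101). H2-DMb1 kept it only without D2 Ter119+ replicate 1, D2 progenitor replicate 1 or B6 Ter119+ replicate 2, the other fits giving 0.0695 to 0.156. H2-Ob, part of the modulator of peptide loading in B cells, rose at least 2.06-fold in D2 and 10.03-fold in B6 (interaction -1.74 ± 0.37, adjusted p = 0.0113). D2 progenitors were below detection for H2-Ob, so its D2 rise is a lower limit and its interaction at least -2.29, which sets no bound on its sign. Of the 7 class II list members that were not called, Cd74, the invariant chain, had -0.78 ± 0.45 (adjusted p = 0.525), and Ciita, the class II transactivator, 1.34 ± 0.41 (adjusted p = 0.118). In the class I list 1 of 10 was called. H2-Q8 changed by 0.67 ± 0.21 in D2 and -0.71 ± 0.21 in B6 (interaction 1.38 ± 0.29, adjusted p = 0.0107), and its other probe had 0.97 (adjusted p = 0.525). Some H2 genes are near-identical in sequence, so the probes of such genes may bind each other's transcripts.

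Of 16 B lymphoid genes 1 was called and 12 had a positive interaction, with a median of 0.51 beside 0.00924 for all genes. The median was 0.04 under median scaling and 0.15 under 75th percentile scaling, beside -0.02 and 0.09 for all genes. Spib, an Ets family factor of B cells and dendritic cells, read 8.80, 9.09 and 9.25 in D2 Ter119+ cells, 4.37, 4.63 and 4.55 in D2 progenitors, 7.41, 7.38 and 7.84 in B6 Ter119+ cells and 4.28, 4.24 and 4.42 in B6 progenitors. Its D2 Ter119+ arrays lay above the B6 ones, and the progenitors were undetected. Spib rose at least 15.5-fold in D2 and at least 6.8-fold in B6 (interaction 1.30 ± 0.28, adjusted p = 0.0134), and without D2 Ter119+ replicate 3 the adjusted p was 0.0545. The normalized intensities of the 7 B cell markers (linear scale) summed to 7839 to 11172 on D2 Ter119+ arrays, 248 to 325 on D2 progenitor arrays, 5700 to 7758 on B6 Ter119+ arrays and 234 to 315 on B6 progenitor arrays. All 7 were detected on every Ter119+ array, and 3 on no progenitor array of either strain. Their part in the calls of Spib and the class II genes was not tested.

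In the lists of other blood cells the calls were few and pointed both ways, but the lists do not hold every gene of these cells. Called genes of lymphoid or myeloid cells outside every list included Klra16 (interaction 1.84), Cd40 (1.52), Btla (-1.77), Klra7 (-1.76) and Fcer1g (-2.20). They were picked after their values were seen, and each value uses readings below detection. In the mast cell and basophil list 2 of 12 were called, Hdc higher and Fcer1a lower. Fcer1a, the IgE-binding chain of the high-affinity IgE receptor, read 7.46, 8.01 and 8.12 in D2 Ter119+ cells, 7.04, 6.93 and 7.03 in D2 progenitors, 7.41, 8.42 and 7.70 in B6 Ter119+ cells and 4.41, 5.51 and 5.37 in B6 progenitors. The Ter119+ groups overlapped and the progenitor groups did not. Fcer1a was detected on 2 of 3 B6 progenitor arrays. Its interaction was -1.88 ± 0.41 (adjusted p = 0.0138), which became 0.0524 without B6 progenitor replicate 1, and another probe had -1.11 (adjusted p = 0.0972). The mean of the 6 mast cell and basophil markers was 8.78 ± 0.496 in D2 Ter119+ cells, 7.11 ± 0.265 in D2 progenitors, 8.66 ± 0.233 in B6 Ter119+ cells and 7.17 ± 0.368 in B6 progenitors, and its part in these calls was not tested. Hdc and Fcer1a are themselves among these markers.

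Rnase2a, a ribonuclease of the eosinophil family, was the called gene of 5 in the eosinophil list. The other 4, Prg2, Epx, Ear6 and Prg3, had negative interactions of -1.46, -0.89, -0.76 and -0.66, none of them called, and the list's median was -0.76 (-1.35 under median and -1.23 under 75th percentile scaling). Rnase2a rose in D2 by 1.74 ± 0.30 and was undetected on all 6 B6 arrays (interaction 1.72 ± 0.42, adjusted p = 0.0326). It was detected on 2 of 3 D2 progenitor arrays. The D2 progenitors spread widely, at 5.10, 5.71 and 6.97, with replicate 3, the array with high neutrophil markers, at the top. Rnase2a kept its call only without D2 Ter119+ replicate 1 or D2 progenitor replicate 3, and the other 10 fits gave 0.0539 to 0.125. In the late neutrophil granule list 1 of 25 was called, Itgb2l, an integrin beta chain of neutrophils, which was undetected in the progenitors of both strains. Itgb2l rose at least 1.49-fold in D2 and at least 4.29-fold in B6 (interaction -1.12 ± 0.26, adjusted p = 0.0223), and another probe had -0.24 (adjusted p = 0.759). Itgb2l did not pass without D2 Ter119+ replicate 2, D2 progenitor replicate 2 or 3 or B6 progenitor replicate 1 or 2, with adjusted p between 0.053 and 0.0691. The list's median was -0.42 (-0.38 and -0.26 under the scalings), and its members stood higher in D2 than in B6 progenitors by a median of 0.67. Neutrophil markers summed to 49221 to 57469 (linear intensity) on D2 Ter119+ arrays, 9513 to 35332 on D2 progenitor arrays, 35709 to 50179 on B6 Ter119+ arrays and 5146 to 5985 on B6 progenitor arrays, and their part in the result was not tested.

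No call was made among 12 megakaryocyte and platelet genes, all of which had a negative interaction (median -0.42, which was -0.22 under median and -0.11 under 75th percentile scaling, lowest Selp at -1.48 ± 0.41, adjusted p = 0.0739), nor among 11 T and NK cell, 19 monocyte and macrophage, 11 primary granule or 16 stem and early progenitor genes. Of 35 interferon response genes 1 was called, Igtp, an interferon-inducible GTPase, which rose 4.39-fold in D2 with no called change in B6 (interaction 1.55 ± 0.37, adjusted p = 0.0292). D2 Ter119+ replicate 1 was at 9.64 beside 8.55 and 8.39. Without that array, D2 progenitor replicate 2 or 3, B6 Ter119+ replicate 1 or 2 or B6 progenitor replicate 1 or 2 its adjusted p lay between 0.053 and 0.0945. Called genes outside the list included Irgm2, another interferon-inducible GTPase, picked after its values were seen. Irgm2 rose 14.9-fold in D2 and 1.89-fold in B6 (interaction 2.97 ± 0.39, limma adjusted p = 9.14e-05). It was detected on 1 of 3 D2 progenitor arrays, so its D2 fold uses readings below detection. Ifi213 and Trim56, also outside the list, had -2.22 and -1.99, and both use readings below detection.

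In the DNA replication list 27 of 31 interactions were negative (median -0.53), and the median stayed below 0 under median (-0.41) and 75th percentile scaling (-0.30). The called member was Mcm6, a subunit of the replicative helicase. It read 8.28, 8.21 and 8.04 in D2 Ter119+ cells, 9.32, 9.27 and 9.28 in D2 progenitors, 9.23, 10.02 and 9.40 in B6 Ter119+ cells and 9.33, 9.38 and 9.56 in B6 progenitors. The D2 Ter119+ arrays were below all others. Mcm6 fell 2.16-fold in D2 with no called change in B6 (interaction -1.24 ± 0.25, adjusted p = 0.0069). Its 2 other probes had -1.72 (adjusted p = 0.154) and 0.05 (adjusted p = 0.98). The other Mcm genes of the complex, Mcm2, Mcm3, Mcm4, Mcm5 and Mcm7, had interactions of -0.73, -0.56, -0.43, -0.51 and -0.86, none of them called. Of the 31 replication genes 10 fell in D2 and 5 in B6, where 24.6% and 23.6% of all genes fell, and 1 rose in D2 and 5 in B6, where 19.6% and 17.7% rose. These counts are close to the shares of all genes, apart from the 1 that rose in D2.

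**Figure D5:**
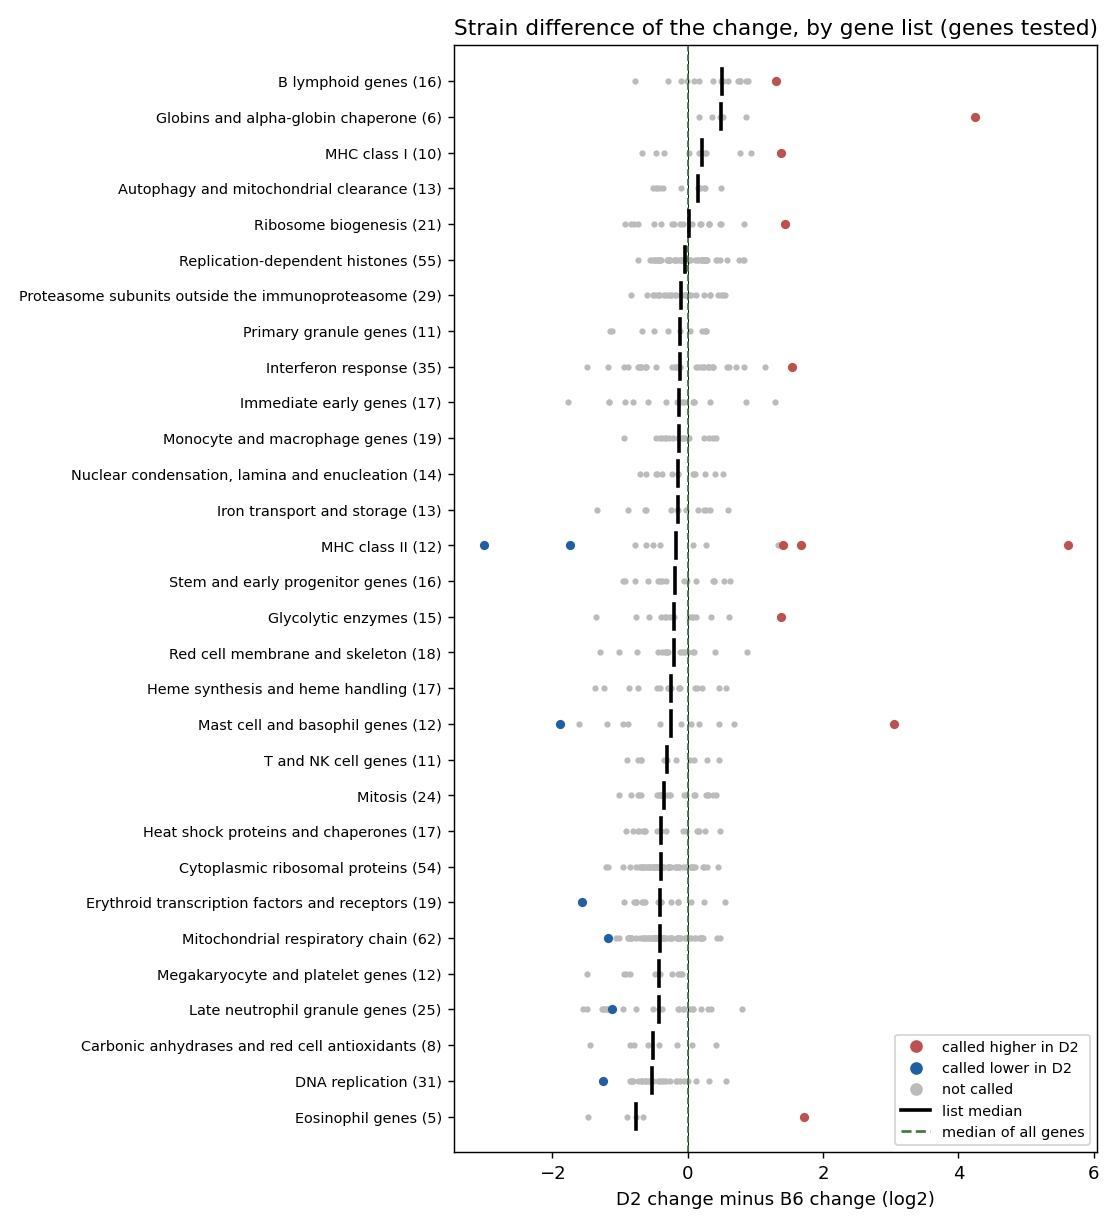
Interaction (D2 change minus B6 change, log2) of every tested member of 30 gene lists, with the list median (black bar) and the median of all genes (dashed line); called genes are coloured and the number tested stands beside each name. MHC class II genes spread from -3.01 to 5.62, and DNA replication, ribosomal protein and respiratory chain medians lie below 0.

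Among ribosomal protein genes the interaction was negative for 45 of 54, with a median of -0.40 and 0 calls. Of the 54, 41 fell in D2, where 24.6% of all genes fell, and 16 in B6, where 23.6% fell and the list's count is near that share. In the respiratory chain 50 of 62 were negative (median -0.41), 43 fell in D2 and 20 in B6 beside the same shares of all genes, and 1 was called. That gene, Ndufa4, a subunit of the terminal oxidase, fell 2.13-fold in D2 with no called change in B6 (interaction -1.18 ± 0.30, adjusted p = 0.0391). Ndufa4 did not pass without D2 Ter119+ replicate 2 or 3, D2 progenitor replicate 1 or 2, B6 Ter119+ replicate 2 or B6 progenitor replicate 1 or 3, with adjusted p between 0.057 and 0.141. Both list medians stayed negative under the 2 scalings, at -0.35 and -0.24 for ribosomal proteins and -0.25 and -0.13 for the respiratory chain. Heat shock genes had a median of -0.39 (-0.22 and -0.11 under the scalings) and mitosis genes of -0.34 (-0.11 and 0.00472), with 0 of 17 and 0 of 24 called.

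Ribosome biogenesis and glycolysis held 1 call each, both higher. The interaction was positive for 11 of 21 ribosome biogenesis genes (median 0.02, and 0.12 and 0.24 under the scalings) and for 7 of 15 glycolytic enzymes (median -0.19, and 0.00194 and 0.12 under the scalings). Polr1b, the second largest subunit of RNA polymerase I, was the called gene of 21 in ribosome biogenesis (interaction 1.44 ± 0.27, adjusted p = 0.00429). It read 5.64, 5.62 and 5.42 in B6 Ter119+ cells and 7.09, 6.78 and 7.13 in B6 progenitors, while its probe was undetected on all 6 D2 arrays. Eno3, the muscle form of enolase, was the called gene of 15 glycolytic enzymes. It rose 3.53-fold in D2 with no called change in B6 (interaction 1.38 ± 0.29, adjusted p = 0.0113). In D2 progenitors 1 of 3 arrays reached detection, so this fold and the interaction of Eno3 use readings below detection. No call was made among 55 histone genes, 29 proteasome genes, 17 immediate early genes, 14 genes of nuclear condensation and enucleation, or 13 autophagy and mitochondrial clearance genes. Autophagy genes had a median of 0.15, which was -0.10 under median scaling.

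Many of the called genes had groups without detection. Detection on all 12 arrays held for 20 of the genes called higher and 22 of those called lower, and detection on no progenitor array of either strain for 27 and 12. On none of the 6 D2 arrays were 10 called higher and 17 called lower detected, and on none of the 6 B6 arrays 10 and 4. A gene silent in some groups entered the test only through a group where it was detected, so these counts are given with no comparison to other genes. Over all 4 cell types, 24 of the 145 called genes were detected on none of the 12 D2 arrays and 12 on none of the 12 B6 arrays. Whether the probes of these genes match both strains' sequence was not tested. In other kept probes of the called genes, 41 of 49 interactions had the same direction and 11 were called, none of them opposite.

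Mst1r and Ankrd61 were singled out after their values were seen, for the size of their fitted interactions, both of which involve B6 groups below detection. Mst1r encodes the receptor tyrosine kinase Ron, whose short form governs susceptibility of mouse erythroid progenitors to Friend virus, and C57BL mice are known for resistance at that locus. It read 5.01, 4.92 and 4.64 in D2 Ter119+ cells and 8.21, 8.18 and 8.17 in D2 progenitors, and was undetected on all 6 B6 arrays. D2 progenitors were at least 10.6-fold higher than B6 progenitors. Mst1r fell 10.1-fold in D2 (interaction -3.42 ± 0.21, adjusted p = 2.31e-10), and its other probe had -1.31 (adjusted p = 0.000704). Ankrd61, an ankyrin repeat gene, read 9.34, 7.83 and 8.20 in D2 Ter119+ cells and was at least 14.1-fold higher there than in B6 Ter119+ cells, where it was undetected (interaction 3.62 ± 0.42, adjusted p = 1.83e-05).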

How the data were processed

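Messenger RNA of 24 samples, 3 for each of 8 groups of strain and cell type, was measured on 1 array each. Per the file headers, the deposited table holds raw bead intensities per probe. The authors deposited beside them a share column between 0 and 1 for detection, which equals 1 minus the detection p. Their log2 values, deposited as the series' value table, matched the quantile-normalized log2 intensities to within 0.00113 and served as an alternative. Per the submitters' processing notes GenomeStudio was used. No column of values was left unmapped (0).

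Background was removed by limma's normexp method, for which the detection p served to infer the negative controls, with an offset of 16. Quantile normalization of the 24 arrays and log2 transformation followed. Of 45281 probes, 12668 were kept because some group had a detection p below 0.01 on each of its 3 arrays. Probes were named by GEO's platform annotation: 34885 had 1 symbol, 18 several and 10378 were not listed, and the Entrez IDs of 78 were not in the RefSeq table of GRCm38.p6. Each of 7925 genes kept its probe of highest mean, and 2382 genes had more than 1. A limma model (3.58.1, R 4.3.3) of 8 group means with 16 residual degrees of freedom gave two-sided moderated tests, adjusted by Benjamini-Hochberg over 7925 genes. The number of arrays limits the precision. The scripts were tested on simulated data.

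Genes named were the 10 highest and 10 lowest called interactions among genes detected on all 12 arrays, up to 6 a direction by the bound set by an undetected group, up to 4 a direction with opposite calls, and up to 4 called members a direction of each list, with a few erythroid genes whether called or not, of which Hbb-b1 has no probe in the annotation. An item of that rule is not reported here. Clone-like symbols were left out. Genes said above to be picked or singled out after their values were seen lie outside the rule. The members, lists and markers were chosen with earlier results of these data known. Alternatives covered background, normalization, filter, probe choice, model and single arrays.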

Additional observations from a re-analysis of the deposited data

Results flagged for a closer look

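The changes listed here differed between strains by the test of the difference itself, the interaction in limma at an adjusted p under 0.05, and are given as D2 change minus B6 change on the log2 scale. Their errors and adjusted p stand with each gene above. Groups detected on no array or on only some arrays are named there, and values from them use readings below detection.

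Among genes detected on all 12 arrays the D2 change exceeded the B6 change by 3.05 for Hdc, 2.69 for Trib2, 2.43 for Abi3, 2.41 for Mlycd, 2.28 for Ifi30 and 2.01 for Zfp277. It exceeded it by 1.81 for Fcgr3, 1.64 for B3gnt8, 1.61 for Csrp2 and 1.60 for Cd59a. In the other direction the difference was -2.90 for Ift140, -2.04 for Art4, -1.92 for Cited4, -1.83 for Mthfd1 and -1.76 for Nek3. It was -1.72 for Pfas, -1.60 for Crat, -1.58 for Ifitm1, -1.52 for Ctse and -1.42 for Cenpv.

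Where 1 group was undetected, the difference was 1.25 for Fgd6, 1.28 for Tulp4, -1.90 for Ddx25, -1.61 for Ppp1r9a and -1.52 for Emcn. Further genes called in opposite directions had 2.02 for Rapgef3, -1.24 for Fgfrl1 and -1.23 for Ppp1r9b.

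From the gene lists, the difference was 4.24 for Hbb-b2, -1.56 for Sox6, -1.24 for Mcm6, 1.44 for Polr1b, 1.38 for Eno3 and -1.18 for Ndufa4. Genes of other blood cells had -1.12 for Itgb2l, -1.88 for Fcer1a, 1.72 for Rnase2a and 1.30 for Spib. Interferon and MHC genes had 1.55 for Igtp, 1.38 for H2-Q8, 5.62 for H2-Ea, 1.67 for H2-DMb2, 1.41 for H2-DMb1, -3.01 for H2-Aa and -1.74 for H2-Ob.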

How the results depend on the processing

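No setting reversed any of the 45 called genes named by rule. Of these, 4 (Hbb-b2, H2-Ea, H2-Aa and Sox6) passed in every setting that tested them, 17 with those 4 included passed in every setting apart from the median and 75th percentile scalings, and 18 were lost without at least 1 array. The interaction of Tfrc, which was not called, took either sign (-0.29 to 0.31). Counts of higher and lower interactions, 80 and 65 as reported, were 4 and 5 with median scaling, 5 and 12 with 75th percentile scaling, 35 and 34 when normalized over the 12 arrays, 35 and 31 with only the 12 arrays fitted, 10 and 10 for genes detected on all 12 arrays, 127 and 101 for all kept probes, 295 and 381 with array weights, and 96 and 116 without the 3 arrays that stand apart (D2 LSK replicate 2, D2 progenitor replicate 1 and B6 Ter119+ replicate 2). The cause of these shifts was not tested beyond the larger standard errors of both scalings and the fewer genes or arrays of the settings that drop them. Leaving out 1 array gave 41 to 96 higher and 41 to 94 lower, lowest without D2 Ter119+ replicate 3 and highest without D2 Ter119+ replicate 1. No background correction gave 103 and 59 (63.6% higher).

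Genes that rose and fell in D2, 1554 and 1949 as reported, were 416 and 102 with median scaling, 699 and 325 with 75th percentile scaling and 941 and 955 with a change of at least 1. In B6, 1401 and 1871 as reported, they were 584 and 99, 795 and 420, and 850 and 811. Genes that rose were 833 in D2 and 771 in B6 among those detected on all 12 arrays, and 2498 and 2216 over all kept probes. Without single arrays 1299 to 1653 rose and 1704 to 2110 fell in D2, and 1214 to 1437 rose and 1577 to 1946 fell in B6.

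Whether the replicate numbers pair the samples was not settled, and the model treated the arrays as unpaired. Of 18 pairs of same-numbered arrays, 5 correlated above 0.1 in their deviations (-0.291 to 0.364). Ter119+ against progenitor arrays gave 0.288, 0.0958 and 0.364 in D2 and 0.00427, 0.0127 and -0.0595 in B6. Arrays of different numbers were not compared. With a replicate block the counts were 81 and 62.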
